A study of Mus musculus with 4 samples.

Results

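Peak regions are stretches of the genome where the fragments of an accessibility library pile up. The values described here count, for each nucleus, the fragments that were assigned to such regions and the transposase cut sites that lay inside them. Nuclei were barcodes that the authors had marked as cells and that held at least 5000 usable fragments, which kept 3951 of 4086 marked barcodes. MEC replicates 1 and 2 gave 1019 and 936 of them, and LEC replicates 1 and 2 gave 1040 and 956. The libraries came from medial (MEC) and lateral (LEC) entorhinal cortex, dissected on both sides and flash frozen, of wild-type C57Bl6 mice aged 56 postnatal days. Neither group carried a transgene or received an agent, and the groups differed in brain region alone as far as the labels say. The design names 2 mice for the 4 libraries, and nothing ties a library to a mouse, so the spread between the 2 libraries of a region may be technical. It is unknown whether 1 peak set was used for all libraries, for each region or for each library, and every value at peaks below carries that limit. No peak position, gene or cell type was analysed here, and the labelled tissue was not checked against marker genes.

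In this assay the Tn5 transposase cuts open chromatin and leaves an adapter at each cut, so every sequenced fragment has 2 ends and each end is a cut site. A fragment that lies wholly within an open region has both ends inside it, while a fragment that reaches across the border of the region has only 1. Promoters of active genes are open in most cells of a tissue, whereas distal enhancers are known to be open in a more cell-type-restricted way. In cortex, where excitatory neurons, inhibitory neurons and glia are mixed, peaks therefore collect both shared and cell-type-restricted sites.

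Depth differed between the regions. The libraries held between 114232167 and 146431311 read pairs, and the median nucleus had 61895 ± 1855 usable fragments in MEC and 45963 ± 259 in LEC (SD, n = 2 libraries for this and all group values below). Duplicates made up 28.4% ± 0.297 of the duplicate and usable pairs of MEC nuclei and 20.6% ± 0.580 in LEC. The number of distinct fragments in the median nucleus, estimated from its duplicates, overlapped between the regions, at 127041 ± 2396 in MEC and 125337 ± 2695 for LEC. Over the 6 pairs of libraries, 7 nucleus barcodes occurred in both members of a pair.

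The barcodes that held exactly 1 usable fragment show what the peak columns count, since each such barcode gives the full record of a single fragment. There were between 113622 and 135963 of them per library, and none had been marked as a cell. Of the fragments counted in peaks, 81.7% (Wilson 95% interval 81.4% to 82.1%) and 81.8% (81.4% to 82.2%) had both ends inside a peak in MEC replicates 1 and 2. In LEC replicates 1 and 2 these shares were 77.3% (76.7% to 77.8%) and 76.98% (76.4% to 77.5%). Fragments with both ends inside a peak were thus the common kind in every library, and were more common throughout MEC. A single end lay inside a peak for 17.4% ± 0.114 of these fragments in MEC and 21.6% ± 0.277 in LEC. A small class had neither end inside a peak although it was counted as a peak fragment, at 0.793% ± 0.0807 in MEC and 1.25% ± 0.0745 in LEC. Between 8 and 20 fragments per library had an end inside a peak without being counted as a peak fragment. The number of cut sites per peak fragment is therefore close to, but not exactly, a count of fragments with 1 or 2 ends in a peak. Intervals here and below cover counting error only. In the nuclei no value fell outside the range from 1 to 2, while among all barcodes between 473 and 545 per library had fewer cut sites than peak fragments and between 50 and 60 had more than 2 per peak fragment.

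Peaks of MEC nuclei held more cut sites per fragment than peaks of LEC nuclei. Pooled over nuclei, there were 1.817 and 1.819 cut sites per peak fragment in MEC replicates 1 and 2, against 1.763 and 1.772 in LEC replicates 1 and 2. The regions did not overlap, and the libraries within a region lay close together. The MEC mean was 1.818 ± 0.00196 and the LEC mean 1.767 ± 0.00591, which differ by 0.0506 cut sites per fragment (exact permutation p = 0.333, two-sided). With 2 libraries against 2, this test over 6 assignments cannot give a lower p, so no comparison here could pass 0.05.

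MEC nuclei also had more of their usable fragments in peaks. This peak share was 33.8% and 34.6% in MEC replicates 1 and 2, and 24.1% and 24.6% in LEC replicates 1 and 2, with counting intervals of at most 0.0125 percentage points to either side (Wilson, 95%). The regions did not overlap (exact permutation p = 0.333). MEC exceeded LEC by 9.83 percentage points, and by 4.42 with all read pairs as denominator. After subtraction of the share in barcodes not marked as cells, the excess was 4.25 points. The amount left depends on which barcodes are subtracted. MEC also exceeded LEC by 3.83 points in unmarked barcodes with at least 5000 fragments. In unmarked barcodes with 50 to 1000 read pairs the excess was 9.82 points, and in single-fragment barcodes 9.89. Counted by ends rather than by fragments, 31.1% ± 0.505 of all fragment ends lay inside peaks in MEC and 21.5% ± 0.403 in LEC, a 1.44-fold difference against 1.40-fold for fragments. The median MEC nucleus carried 21367 ± 1337 peak fragments with 38843 ± 2554 cut sites, and the median LEC nucleus 11112 ± 660 with 19669 ± 1016. Outside peaks the median nucleus held 38823 ± 613 fragments in MEC and 34422 ± 410 in LEC, a 1.13-fold difference against 1.92-fold for peak fragments.

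DNase-sensitive regions are an annotated class of open chromatin. Relative to them, peaks of MEC nuclei took 0.934 and 0.950 fragments per DNase-sensitive fragment in replicates 1 and 2, and peaks of LEC nuclei 0.716 and 0.733. The regions were again separate, at 0.942 ± 0.0113 and 0.724 ± 0.0121 (exact permutation p = 0.333). The DNase-sensitive share itself was 36.3% ± 0.116 in MEC and 33.6% ± 0.0424 in LEC, a 1.08-fold difference beside the 1.30-fold one in this ratio. Relative to the other annotated classes, peak fragments were also more frequent in MEC, by 1.34-fold per enhancer fragment, 1.28-fold per transcription start site (TSS) fragment, 1.21-fold per promoter fragment, 1.33-fold per on-target fragment (the union of these classes) and 1.16-fold per blacklisted fragment. Over libraries, 6 values were compared. They were the 4 ratios above and, for cut sites per peak fragment alone, the spread among nuclei and the relation to depth. Of the 6, 5 separated the regions, each with an adjusted p of 0.4 (exact permutation test, Benjamini-Hochberg over the 6).

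Nuclei with more peak fragments than DNase-sensitive fragments were found in MEC and not in LEC. They were 280 of 1019 nuclei (27.5%) in MEC replicate 1 and 300 of 936 (32.1%) in MEC replicate 2. The LEC libraries held 0 of 1040 and 0 of 956, which allows a share of up to 0.288% and 0.314%. In the MEC nuclei concerned, peaks must include fragments outside the DNase-sensitive annotation. No nucleus of any library had more peak fragments than on-target fragments.

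The nuclei of a library varied widely among themselves. Cut sites per peak fragment ran from 1.742 to 1.921 around a median of 1.821 in MEC replicate 1 and from 1.758 to 1.933 around 1.824 in its replicate 2. In LEC the range was 1.672 to 1.878 around 1.764 for replicate 1 and 1.576 to 1.896 around 1.773 for replicate 2. The lowest nucleus of all, in LEC replicate 2, had 8707 usable fragments, of which 1666 were in peaks, and the next lowest of that library stood at 1.652. The SD among nuclei was 0.0302 ± 0.000161 in MEC and 0.0417 ± 0.000580 in LEC, wider in both LEC libraries (exact permutation p = 0.333). It was 9.71 ± 0.295 times in MEC and 9.10 ± 0.403 times in LEC the SD that counting alone would give if every fragment had 1 or 2 ends in a peak.

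Although the regions were separate as libraries, their nuclei overlapped. Of the LEC nuclei, 19.0% in replicate 1 and 24.2% in replicate 2 had more cut sites per peak fragment than the median MEC nucleus. For the peak share these figures were 8.65% and 10.4%, and for peak fragments per DNase-sensitive fragment 0.192% (2 of 1040 nuclei) and 0.418% (4 of 956). Overlap was thus widest for cut sites and narrowest for the ratio to DNase-sensitive fragments. In each LEC library the histogram of cut sites per peak fragment had a main high point and a further one: 12.5% of replicate 1 nuclei lay between 1.74 and 1.75, 4.42% between 1.81 and 1.82 and 7.02% between 1.83 and 1.84. In LEC replicate 2 the corresponding bins held 12.4% (1.75 to 1.76), 4.39% (1.80 to 1.81) and 7.64% (1.83 to 1.84). The dip was shallow in MEC replicate 1, with 7.36% of nuclei between 1.85 and 1.86 and 8.24% in the next bin, after 13.8% between 1.81 and 1.82. MEC replicate 2 did not repeat it: its fullest bin, 1.81 to 1.82, held 13.5%, and the bins from 1.82 to 1.83 and from 1.83 to 1.84 held 11.2% and 11.3%. Such high points mark ranges of the ratio, and no cell type was assigned to them.

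**Figure D1:**
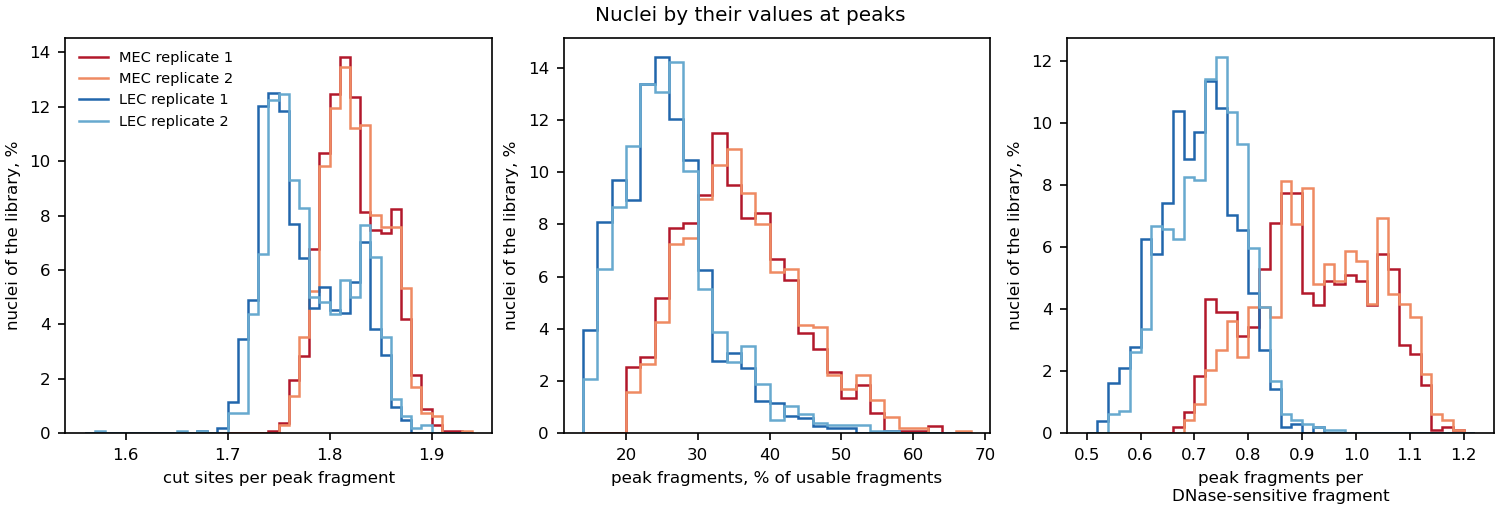
Share of the nuclei of each library (vertical axis, %) by cut sites per peak fragment, by peak fragments as % of usable fragments and by peak fragments per DNase-sensitive fragment (horizontal axes), with 1 outline per library. MEC outlines (medians 1.821 and 1.824 cut sites) lie to the right of LEC outlines (1.764 and 1.773) in each panel, with an overlap that is least in the right panel.

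From 20000 usable fragments upward, cut sites per peak fragment were lower in each deeper class in every library. Below that, the MEC libraries showed no fall: replicate 1 had 1.855 between 5000 and 10000 fragments and 1.865 between 10000 and 20000, and replicate 2 had 1.854 and 1.856. In LEC the shallow classes already differed, with 1.841 and 1.838 in the first and 1.824 and 1.832 in the next. In nuclei with 20000 to 40000 usable fragments there were 1.853 and 1.857 in MEC replicates 1 and 2, against 1.800 and 1.814 in LEC. The next classes had 1.834 ± 0.00354 in MEC against 1.765 ± 0.00766 from 40000 to 60000, and 1.819 ± 0.00569 against 1.749 ± 0.00735 from 60000 to 80000. The deepest nuclei, from 80000 fragments, had 1.798 and 1.801 against 1.732 and 1.743. Between 20000 to 40000 fragments and this deepest class the value changed by -0.0551 ± 0.00118 in MEC, and the LEC change was -0.0691 ± 0.00191 (exact permutation p = 0.333 for the difference, with an adjusted p of 0.333 over the 9 changes with depth computed). Within a library, the rank correlation over nuclei between cut sites per peak fragment and usable fragments was -0.763 and -0.723 in MEC replicates 1 and 2, and -0.778 and -0.749 in LEC replicates 1 and 2. These correlations are descriptions over nuclei that share a library, and they overlapped between the regions.

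The regions also differed within classes of usable fragments, by an amount that changed with the class. The MEC values exceeded the LEC values in 6 of 6 classes of usable fragments for cut sites per peak fragment, for the peak share and for peak fragments per DNase-sensitive fragment (exact permutation p = 0.333 in each class, and an adjusted p of 0.333 over the 24 class values). For cut sites the difference was 0.0157 between 5000 and 10000 fragments, 0.0321 between 10000 and 20000, 0.0477 between 20000 and 40000, 0.0693 in each of the next classes up to 80000, and 0.0617 at 80000 or more. It was thus narrow in shallow nuclei and wide in deep ones. The shallowest class held between 20 and 50 nuclei per library, and every other class at least 56. MEC nuclei had been sequenced more deeply, so nuclei of equal usable fragments may differ in the number of distinct fragments they hold. In classes of estimated distinct fragments the MEC values exceeded the LEC values in each class as well, with differences in cut sites from 0.0242 to 0.0535.

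The peak share was lower in each deeper class from 20000 fragments upward as well. In the classes below, MEC replicate 1 had 39.8% and 38.98%, while MEC replicate 2 went the other way with 36.6% and 40.6%. The LEC replicates had 31.4% and 32.6% between 5000 and 10000 fragments and 28.1% and 30.03% between 10000 and 20000. MEC stood at 38.9% ± 1.06 against 27.9% ± 0.567 for LEC between 20000 and 40000 fragments, and 31.3% ± 0.266 and 22.3% ± 0.101 at 80000 or more. In the classes between, it was 36.8% ± 1.16 against 24.1% ± 0.546 from 40000 to 60000 fragments, and 36.0% ± 1.28 against 23.2% ± 0.570 from 60000 to 80000. Peak fragments per DNase-sensitive fragment took another course. In LEC nuclei they stayed between 0.705 ± 0.0229 and 0.733 ± 0.0217 over the 6 classes. In MEC nuclei they stood at 0.880 ± 0.0141 and 0.883 ± 0.0524 in the shallowest classes, at 0.865 ± 0.0103 between 20000 and 40000 fragments, at 0.930 ± 0.00595 in the next class, at 0.988 ± 0.0145 between 60000 and 80000 and at 0.949 ± 0.00831 above. From the 20000 to the 60000 class the rise was 0.120 and 0.126 in MEC replicates 1 and 2, against 0.0160 and 0.0169 in LEC (exact permutation p = 0.333 for the difference in rise).

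**Figure D2:**
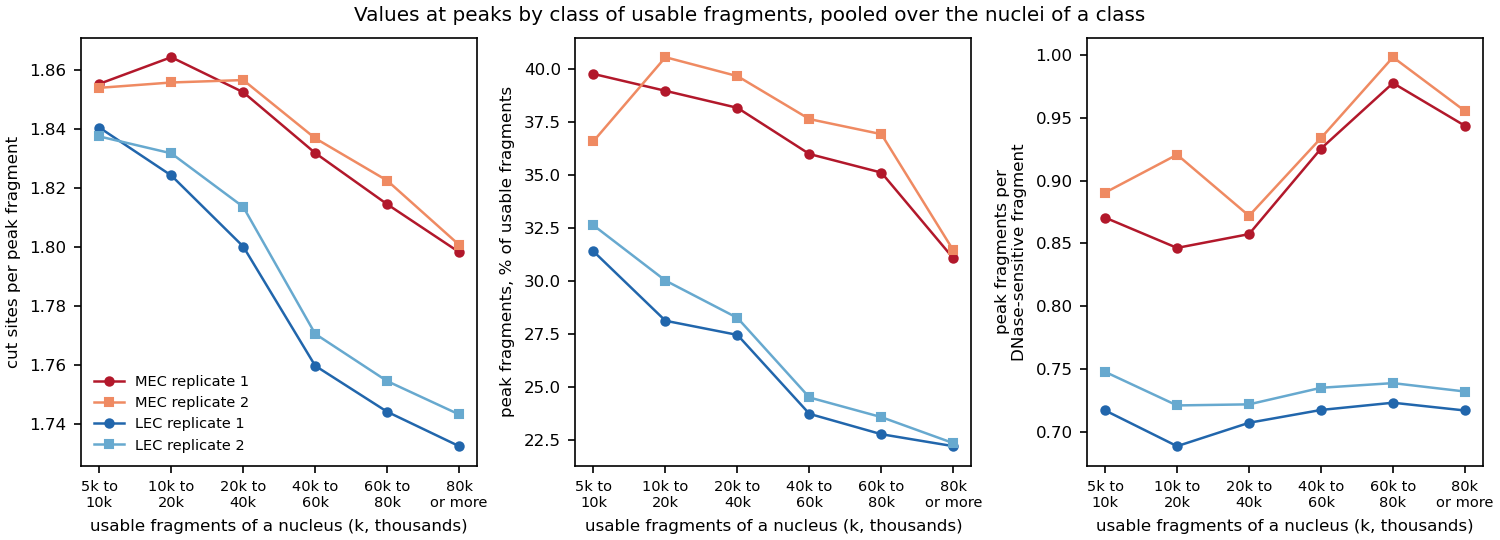
Cut sites per peak fragment, peak fragments as % of usable fragments and peak fragments per DNase-sensitive fragment (vertical axes), pooled over the nuclei of each class of usable fragments (horizontal axis, in units of 1000), with 1 line per library. MEC lines lie above LEC lines in all 6 classes; the right panel shows LEC lines between 0.689 and 0.748 and a rise of 0.120 and 0.126 in the MEC lines from the 20000 to the 60000 class.

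Nuclei with many cut sites per peak fragment were shallow nuclei with a high promoter share. Within each library nuclei were ranked by this value and divided into 4 groups of 25%. The median promoter share was 9.63% ± 0.162 in the lowest group and 23.3% ± 0.0731 in the highest in MEC, and 8.71% ± 0.205 and 20.6% ± 0.00878 in LEC. The median enhancer share changed less, from 21.5% ± 0.0569 to 27.9% ± 0.135 in MEC and from 20.8% ± 0.0131 to 26.0% ± 0.00389 in LEC. Usable fragments went the other way, from 91949 ± 1040 to 29425 ± 2510 in MEC and from 70118 ± 2349 to 20648 ± 1223 in LEC. The median mitochondrial share of read pairs, a measure of organelle DNA carried into the droplet, was 0.153% ± 0.00322 and 0.884% ± 0.0479 in the lowest and highest groups of MEC, and 0.335% ± 0.0214 and 0.927% ± 0.00799 in LEC. The duplicate share stood at 25.4% ± 0.0754 and 33.3% ± 0.708 in MEC and at 18.3% ± 0.00405 and 24.9% ± 0.587 in LEC. Pooled over all nuclei of a library, the mitochondrial share was higher in MEC, at 1.46% ± 0.117 against 0.794% ± 0.0461 in LEC, unlike the medians above. The part of depth, duplicates and mitochondrial DNA in the spread of cut sites was not tested.

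Over the nuclei of a library, the rank correlation of cut sites per peak fragment was between 0.927 and 0.947 with the TSS share, between 0.920 and 0.947 with the promoter share, between 0.650 and 0.802 with the enhancer share and between 0.533 and 0.642 with the peak share, the lowest and highest of the 4 libraries. With peak fragments per DNase-sensitive fragment it was between -0.210 and -0.0382. The first measures share usable fragments as denominator, and the peak share holds the same peak fragments as the cut site value. The ratio of peak to DNase-sensitive fragments was related to the enhancer share in LEC (0.337 and 0.334), with lower values of the opposite sign in MEC (-0.106 and -0.0939).

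At like TSS share the regions remained apart in cut sites per peak fragment. Among nuclei with a TSS share under 15%, the values were 1.778 and 1.781 in MEC replicates 1 and 2, against 1.731 and 1.736 in LEC. Among nuclei with 25% or more they were 1.866 and 1.867 against 1.837 and 1.843. The difference was 0.0463 in the first of these classes, 0.0490 from 15 to 20%, 0.0226 from 20 to 25% and 0.0267 in the last. At like peak share the order changed between classes. Under 20% there were 0 MEC nuclei, and 226 and 163 nuclei of LEC replicates 1 and 2 with 1.741 and 1.748 cut sites per peak fragment. The lowest peak share of a nucleus was 20.1% and 20.7% in MEC replicates 1 and 2, and 14.9% and 15.4% in LEC. Whether the authors' mark of a cell depended on the peak share was not tested. The lack of MEC nuclei under 20% cannot be told apart from a limit set by that mark. Between 20 and 25% of fragments in peaks MEC exceeded LEC by 0.0328, between 25 and 30% by 0.0286 and between 30 and 35% by 0.0167. Between 35 and 40% the order was the other way, with 1.825 and 1.829 in LEC replicates 1 and 2 above 1.820 and 1.821 in MEC (exact permutation p = 0.333). This class held 57 and 62 nuclei of LEC replicates 1 and 2, against 221 and 219 of MEC, and depth was not matched within it. At 40% or more the libraries overlapped, and these nuclei numbered 33 and 37 in LEC against 271 and 275 in MEC. These classes were chosen after the values had been seen.

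**Figure D3:**
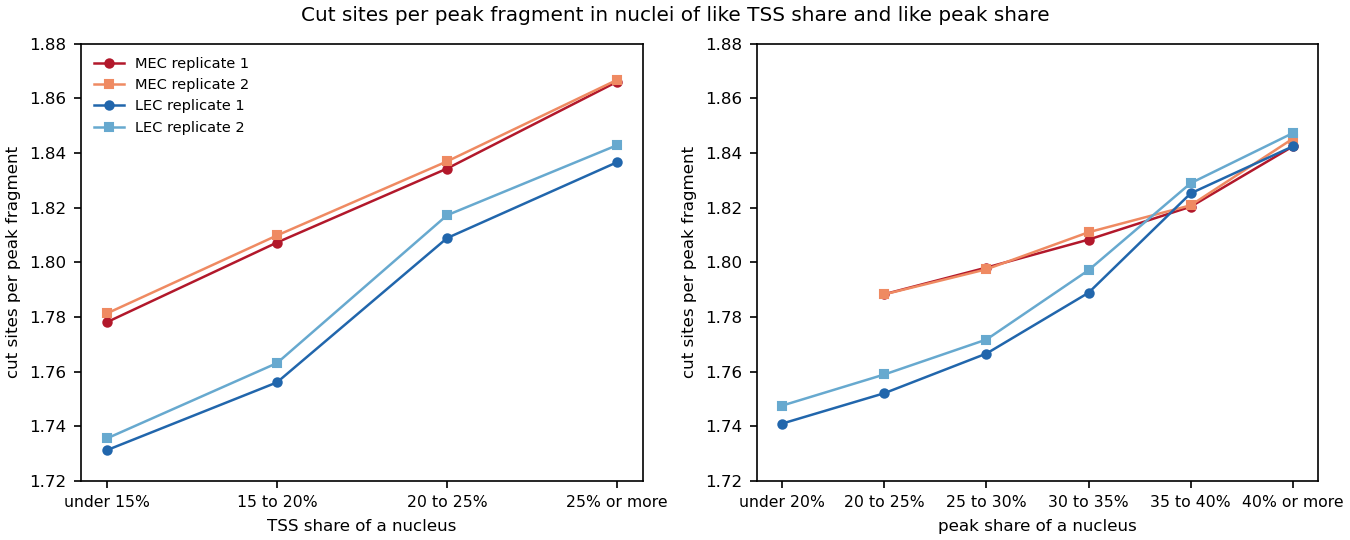
Cut sites per peak fragment (vertical axis), pooled over the nuclei of each class of TSS share (left) and of peak share (right), with 1 line per library. On the left MEC lines lie above LEC lines in every class; on the right the lines meet, and from 35 to 40% the LEC values of 1.825 and 1.829 lie above the MEC values of 1.820 and 1.821.

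Single-fragment barcodes also tie peaks to the annotated classes fragment by fragment. Among 5 kinds that exclude each other (promoter, other TSS, other enhancer, other DNase-sensitive and none of these), promoter fragments were most often in peaks in every library, followed by enhancer fragments. Of promoter fragments, 90.0% and 90.7% were counted in peaks in MEC replicates 1 and 2, and 83.0% and 83.8% in LEC replicates 1 and 2. Of enhancer fragments outside promoters and TSSs these shares were 47.4%, 49.6%, 34.4% and 35.6%. DNase-sensitive fragments outside those classes were in peaks in 35.5% ± 1.15 of cases in MEC and 22.8% ± 0.648 in LEC, TSS fragments outside promoters in 26.5% ± 0.617 and 17.5% ± 0.970, and fragments in none of the annotated classes in 9.47% ± 0.373 and 4.63% ± 0.182. MEC exceeded LEC without overlap in all 5 of these exclusive kinds (exact permutation p = 0.333 in each). The fold difference was 1.08 for promoters, 1.39 for enhancers and 2.04 for fragments in no annotated class. As percentage points the differences were 6.95, 13.5 and 4.84 in the same order, so the ranking of these kinds depends on the scale. Blacklisted fragments, which overlap these kinds and numbered 262 to 373 per library, were in peaks more often still, in 99.7% and 100% of cases in MEC replicates 1 and 2 and in 97.3% and 99.6% in LEC, with 1.989 to 1.997 cut sites per peak fragment. All TSS fragments were in peaks in 67.4% ± 0.406 of cases in MEC against 56.6% ± 0.795, and all on-target fragments in 53.6% ± 1.06 against 40.96% ± 0.831. In points, promoter fragments exceeded enhancer fragments by 41.8 ± 0.998 in MEC and by 48.4 ± 0.356 in LEC (exact permutation p = 0.333 for the difference). Promoter shares were nearer to 100% in MEC, which leaves less room for a difference in points, and no other scale was tested.

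The makeup of the peak fragments differed accordingly. Promoter fragments were 36.0% ± 0.636 of peak fragments in MEC and 40.7% ± 0.509 in LEC. Fragments in no annotated class were 15.6% ± 0.0346 in MEC and 12.0% ± 0.131 in LEC. Enhancer fragments outside promoters and TSSs held nearly equal parts, 32.1% ± 0.525 and 32.1% ± 0.255, and the libraries of the regions overlapped. Of the fragments in DNase-sensitive regions, 62.4% ± 1.05 were in peaks in MEC and 49.2% ± 1.07 in LEC, while 68.5% ± 0.287 of MEC peak fragments and 72.1% ± 0.00852 of LEC peak fragments were in DNase-sensitive regions.

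Peaks at promoters held the most cut sites per fragment among the 5 kinds. A promoter fragment in a peak had 1.936 and 1.947 cut sites in MEC replicates 1 and 2, against 1.906 and 1.908 in LEC. An enhancer fragment in a peak had 1.770 and 1.773 in MEC and 1.682 and 1.688 in LEC. A peak fragment in no annotated class had 1.655 and 1.638 in MEC and 1.564 and 1.563 in LEC. Promoters exceeded enhancers by 0.170 ± 0.00575 cut sites in MEC and by 0.222 ± 0.00304 in LEC. As a plain difference, the contrast between the kinds was thus wider in both LEC libraries (exact permutation p = 0.333). Promoter values lay near their upper limit, and nearer in MEC, which leaves less room for a difference there. The contrast was not tested on another scale. In all 5 kinds the MEC values exceeded the LEC values. Both ends were inside a peak for 94.3% ± 0.741 of promoter fragments in peaks in MEC and 90.9% ± 0.111 in LEC, and for 77.9% ± 0.172 and 70.1% ± 0.275 of enhancer fragments in peaks.

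With the 5 kinds of single fragments in peaks set to 1 common mix, cut sites per peak fragment were 1.816 ± 0.00110 in MEC against 1.751 ± 0.000176 in LEC. They so differed by 0.0649, against 0.0510 at each library's own mix. The share of fragments in peaks at a common mix was 29.9% ± 0.712 and 22.1% ± 0.457, a difference of 7.80 percentage points against 9.89. The source of the single fragments, free DNA in droplets or misread barcodes among others, was not tested, and they may not stand for the nuclei.

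**Figure D4:**
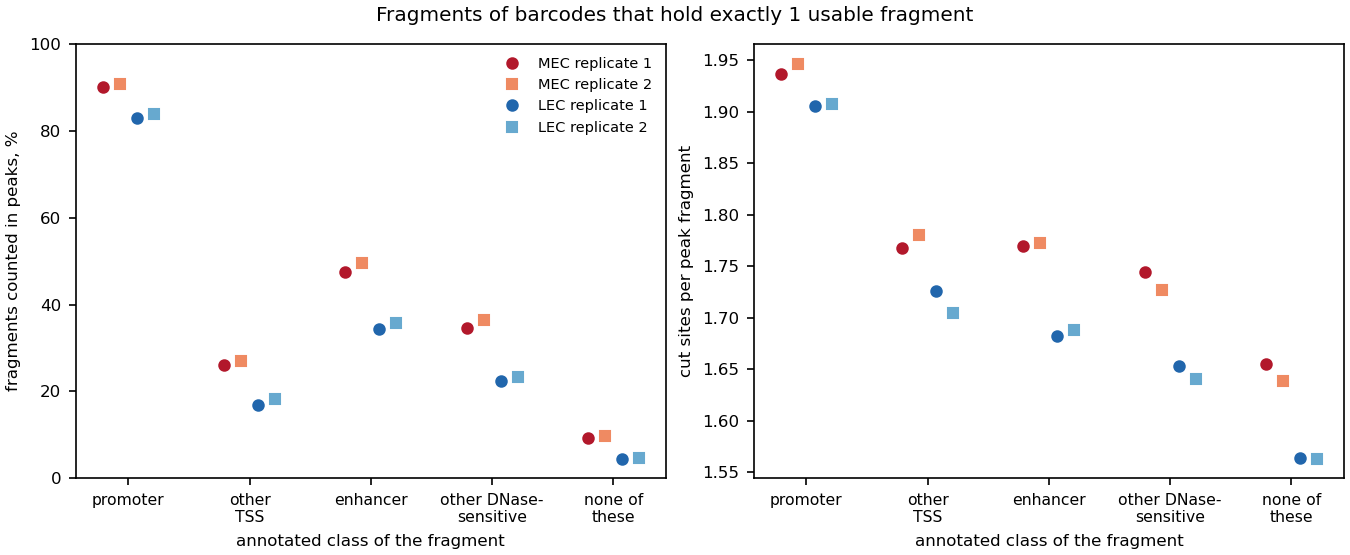
Share of fragments counted in peaks (left, %) and cut sites per peak fragment (right) for barcodes with exactly 1 usable fragment, by exclusive annotated class of the fragment (horizontal axis), with 1 point per library. Promoter fragments are highest in both panels (83.0% to 90.7% in peaks), fragments in no annotated class lowest, and MEC points lie above LEC points in each class.

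The same ratios were taken in other barcodes of the same libraries, which were not marked as cells. Barcodes that were not marked as cells although they held at least 5000 fragments numbered 149 and 140 in MEC replicates 1 and 2, against 240 and 190 in LEC. Their median depth was 54004 ± 1914 usable fragments in MEC and 35665 ± 2531 in LEC, so some of them may be nuclei without the mark. Peaks took 14.6% ± 1.57 of their fragments in MEC and 10.7% ± 0.295 in LEC, with 1.756 ± 0.000246 and 1.711 ± 0.00898 cut sites per peak fragment. All of these were below the values of nuclei. Whether the authors' mark of a cell used the peak share was not tested, and if it did, a lower peak share in unmarked barcodes was fixed by that choice. The TSS share of these barcodes, 11.5% ± 0.293 in MEC and 11.5% ± 0.137 in LEC, overlapped between the regions. Sparse unmarked barcodes with 50 to 1000 read pairs had 1.842 ± 0.00172 and 1.803 ± 0.00254 cut sites per peak fragment, above nuclei, and peak shares of 27.4% ± 2.17 and 17.6% ± 0.895, below nuclei. The ratio of peak to DNase-sensitive fragments was 0.904 ± 0.0286 and 0.659 ± 0.00231 in the sparse barcodes and 0.675 ± 0.0396 and 0.502 ± 0.0126 in the deep unmarked ones. For the 3 ratios MEC exceeded LEC without overlap in each of these sets (exact permutation p = 0.333). The order of the regions at peaks was therefore not particular to barcodes marked as cells. Whether the unmarked barcodes hold nuclei, or reads that stem from nuclei, was not tested.

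**Figure D5:**
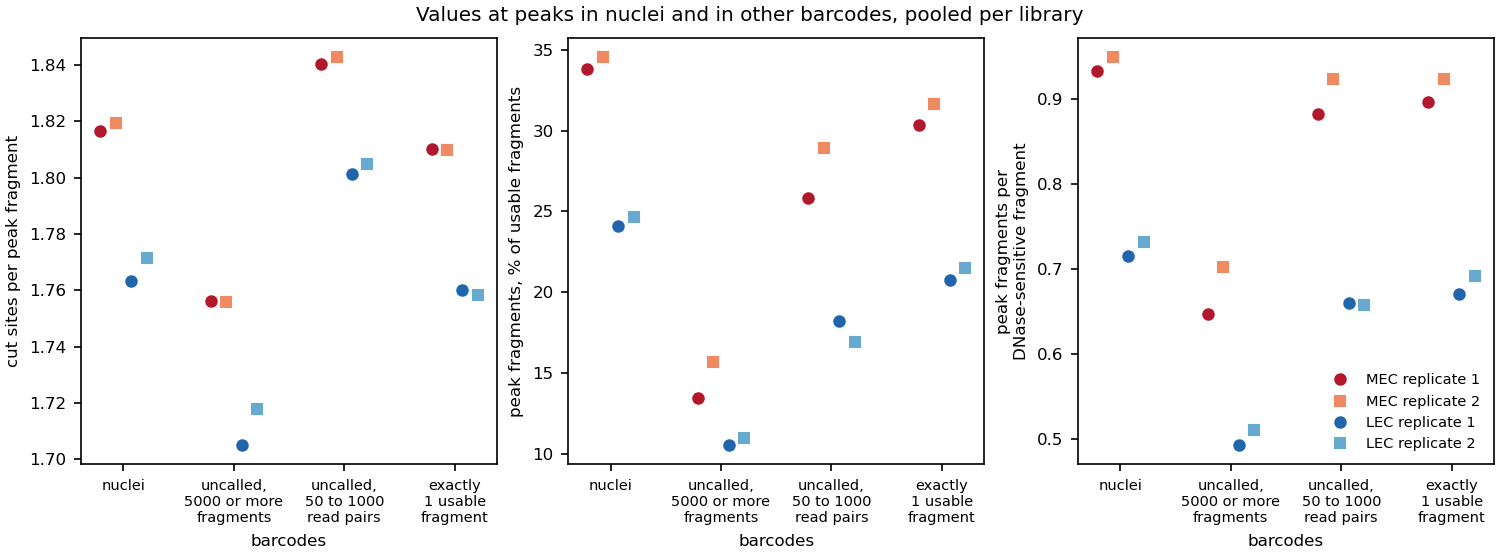
Cut sites per peak fragment, peak fragments as % of usable fragments and peak fragments per DNase-sensitive fragment (vertical axes) in nuclei and in 3 sets of other barcodes (horizontal axis), with 1 point per library, pooled over barcodes. MEC points lie above LEC points in each set, and the deep unmarked barcodes have the lowest peak shares, 14.6% in MEC and 10.7% in LEC.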

How the data were processed

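Single-cell ATAC sequencing of 4 libraries (2 MEC, 2 LEC) gave 1 deposited table each. The authors deposited counts per barcode, per the file headers, of read pairs, usable fragments (unique pairs that passed the filters), fragments in annotated classes and in peaks, and cut sites in peaks. A column of unit other holds the authors' mark of a barcode as a cell, coded 0 or 1, per the file headers. The submitters' processing notes name mm10 and GRCm38. The sources used here name no aligner, peak caller or annotation. The entry for reads without a barcode (1.93% to 1.98% of read pairs) was counted in total depth only.

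Ratios were pooled per library over nuclei with at least 5000 usable fragments, with Python 3.11.15, pandas 2.3.3 and SciPy 1.17.1, and tested on simulated data. Nuclei were not treated as replicates, and libraries were compared by a two-sided exact permutation test. The number of distinct fragments was estimated from duplicates, and its classes hold the same shares of all nuclei as those of usable fragments. No doublet caller was run. The files name no gene, so the rule for named items covers every library, class of usable fragments and annotated class, and no single nucleus beyond the lowest and highest. Values, classes and tests were chosen with earlier results of these data known, and the single-fragment barcodes and share classes after seeing the tables. Alternatives were other definitions of a nucleus, summaries per nucleus, depth weighting in bins of 0.25 (log10), other denominators, omission of each library in turn and a replicate block.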

Additional observations from a re-analysis of the deposited data

Results flagged for a closer look

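Peak fragments per DNase-sensitive fragment changed with depth in unlike ways in the 2 regions. From nuclei with 5000 to 10000 usable fragments to those with 80000 or more, the ratio was higher by 0.0730 and 0.0649 in the MEC libraries and lower in both LEC libraries, where the change was -6.65e-05 in replicate 1 and -0.0156 in replicate 2. The MEC change minus the LEC change was 0.0768 (exact permutation p = 0.333, the smallest the test can give). The value of LEC replicate 1 is all but 0, so its sign carries little, and the shallow class held 20 to 50 nuclei per library.

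Some barcodes had cut sites inside peaks and no fragment counted in a peak, which a count of peak fragments alone would miss. There were 21 and 25 of them in MEC replicates 1 and 2, and 19 and 27 in LEC replicates 1 and 2, and none of the values reported for nuclei rests on them.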

How the results depend on the processing

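In all, 24 results were recomputed under 135 alternatives, and 133 kept the sign of the MEC minus LEC difference. The other two concern the rank correlation of cut sites per peak fragment with usable fragments, whose difference of 0.0205 became -0.0539 with nuclei of at least 20000 fragments and -0.0246 with every barcode of at least 5000 fragments. Without 1 library it lay between 0.000344 and 0.0407, lowest without MEC replicate 2, and it was 0.00207 with at least 10000 fragments, 0.0704 up to 100000 fragments, 0.0329 under 5% mitochondrial, 0.0606 as Pearson r and 0.0623 against peak fragments. Since no test here can pass 0.05, agreement of p-values says nothing about stability. Over other definitions of a nucleus, summaries per nucleus and depth weights the difference in cut sites per peak fragment ranged from 0.0460 to 0.0603, and from 0.0464 to 0.0548 without 1 library. It was 0.0179 with classes of like peak share weighted equally, an alternative added after seeing the data. The peak share difference of 9.83 percentage points became 4.42 over all read pairs and 4.25 after subtraction of the share in uncalled barcodes. It stayed between 9.46 and 10.2 without 1 library. The figure after subtraction depends on which barcodes are subtracted, since uncalled barcodes with 50 to 1000 read pairs had a MEC excess of 9.82 points themselves. The ratio to DNase-sensitive fragments differed by 0.217, by 0.209 to 0.226 without 1 library, and by 0.396 with TSS fragments as denominator. The SD among nuclei differed by -0.0115, by -0.00734 above 20000 fragments and by -0.0240 as interquartile range. In the shallowest depth class, classes of distinct fragments moved the cut site difference from 0.0157 to 0.0242 and the peak share difference from 6.17 to 10.6. The cause of these moves was not tested. With the replicate number as block the difference in cut sites stayed 0.0506, with an exact sign-flip p of 0.5, the smallest that 2 pairs allow; no label says that the numbers pair the libraries.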
